A study of Mus musculus with 6 samples.

Results

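Conventional dendritic cells type 2 (cDC2) are antigen-presenting cells that load peptides on MHC class II molecules and show them to CD4+ T cells, whereas type 1 cells (cDC1) are specialized in showing antigen to CD8+ T cells. In mouse tumors, cDC2 carry surface lectins such as Cd209a and Mgl2, depend on transcription factors that include Irf4, and share part of their program with monocyte-derived cells. Dendritic cells of either type that take up antigen and mature turn on Fscn1, Ccl22 and Ccr7 and move to lymph nodes. The cDC2 described here were chosen by UMI counts in single-cell RNA-Seq data (a UMI marks 1 captured RNA molecule), from barcodes in which 600 to 4000 genes were detected and mitochondrial UMIs made up no more than 10%. A cDC2 barcode held at least 20 UMIs of H2-Aa, H2-Ab1 and H2-Eb1 together, at least 2 UMIs of Cd209a and Mgl2 together, at most 1 UMI of Xcr1 and Clec9a (cDC1 genes), at most 1 UMI of C1qa, C1qb and C1qc (macrophage genes), at most 2 UMIs of Fscn1, Ccl22 and Cacnb3 (mature DC genes), and no UMI of Cd3d, Cd3e, Cd3g, Cd79a or Ms4a1 (T and B cell genes). This left 266 cDC2 cells of the 30067 barcodes that passed the limits on genes and mitochondrial UMIs, out of 52899 deposited. These 18 genes chose the cells, so their levels in the cells are given as description only.

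The cells came from B16-F10 tumors, a melanoma cell line of C57BL/6 origin grown in C57BL/6 mice, and were enriched for CD45, the surface protein of immune cells. The 3 αPD-1 samples were from mice given 150 μg of αPD-1 antibody (clone 29F.1A12) 3 times per week from day 7. The 3 αPD-1 + corin samples were from mice given the same antibody and 200 μg of corin daily from day 6, a compound that inhibits the CoREST complex of LSD1, HDAC1 and RCOR1. All mice were females of 6 to 10 weeks inoculated with 250000 tumor cells, every group received αPD-1, and no untreated or corin-alone sample was among the libraries. With 10 mice per arm, nothing in the labels ties a sample to a mouse, a pool of mice or a batch, so the p-values below measure the spread between these samples.

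The αPD-1 samples (replicates 1 to 3) gave 27, 17 and 22 cDC2 cells with 136727, 98132 and 99923 UMIs in sum, and the αPD-1 + corin samples gave 119, 54 and 27 cells with 507593, 329405 and 131648 UMIs. The median number of UMIs per cell was 4776, 5979 and 4006.5 with αPD-1 and 3632, 5301.5 and 4848 with αPD-1 + corin. Levels below are CPM, UMIs scaled to a fixed total of these sums, always listed from replicate 1 to replicate 3, and only 66 cells stand behind the αPD-1 values. The Cd209a and Mgl2 gate removed most barcodes. In αPD-1 replicate 1, 1273 barcodes passed the MHC class II gate and 77 the lectin gate, and in αPD-1 + corin replicate 1 these numbers were 1643 and 235. Just inside the lectin threshold, at exactly 2 UMIs, were 8, 5 and 5 of the αPD-1 cells and 19, 7 and 5 of the αPD-1 + corin cells. Just outside it, at 1 UMI with all other gates passed, were 6, 4 and 12 and 38, 24 and 4 barcodes. No cDC2 barcode was shared between libraries, although 10 to 32 barcode sequences recurred in each of the 15 pairs of libraries.

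Genes that the gates did not use were compared with the label. Pooled over each group, Clec10a, another lectin of cDC2, was at 308 and 473 CPM in the αPD-1 and αPD-1 + corin cDC2, and at 13.9 and 17.1 CPM in cDC1. Sirpa, a surface marker of cDC2, was at 188 and 265 CPM against 18.6 and 31.3 CPM in cDC1, and Irf4 was at 77.7 and 64.01 CPM against 9.28 and 3.03 CPM. Zbtb46 and Flt3, genes of conventional dendritic cells, were at 77.7 and 46.5 CPM and 114 and 62.97 CPM in cDC2, and at 2.401 and 2.68 CPM and 4.201 and 4.31 CPM in C1q macrophages. Clec10a was at 100.5 and 78.5 CPM and Irf4 at 7.44 and 4.98 CPM there, but Sirpa, at 445 and 420 CPM, was above cDC2. Gated monocytes had Clec10a at 81.8 and 151 CPM, Sirpa at 225 and 256 CPM and Irf4 at 37.5 and 22.4 CPM. Their Zbtb46 was at 5.25 and 7.45 CPM and their Flt3 at 41.3 and 61.9 CPM. Irf4 was higher in B cells than in cDC2, at 241 and 131 CPM. Cst3, one of the given markers, was at 3307 and 2601 CPM in cDC2, below its 21255 and 23405 CPM in cDC1 and above its 1652 and 1568 CPM in C1q macrophages. Monocyte genes were present as well. Lyz2, a lysozyme of monocytes and macrophages, was at 1305 and 2084 CPM in cDC2 and at 9910.01 and 7335 CPM in gated monocytes, and a UMI of Ly6c2, Fcgr1 or Cd14 was found in 66.7%, 76.5% and 59.1% of the αPD-1 cDC2 and in 64.7%, 64.8% and 66.7% of the αPD-1 + corin cDC2. After each cell was thinned to 1000 UMIs, Fcgr1 was found in 8.86% and 12.2% of the cDC2 of the 2 groups and in 1.36% and 4.01% of T cells, and Cd14 in 9.76% and 12.4% of cDC2 and 2.17% and 11.6% of T cells. T cells should lack both genes, and Cd14 in the αPD-1 + corin cDC2 was close to its share there. By these genes conventional and monocyte-derived cells could not be told apart in the gate.

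RNA of other lineages was uneven among the samples. The 13 neutrophil genes summed to 204 to 870.3 CPM with αPD-1 and 159.5 to 5419 CPM with αPD-1 + corin. Within them S100a9 was at 197, 0 and 0 and 2498, 3181 and 0 CPM and S100a8 at 132, 0 and 0 and 1255, 1059 and 0 CPM, so both were at 0 in αPD-1 + corin replicate 3 and in 2 αPD-1 samples. Il1r2 of this list was present in all 6 samples, at 402, 204 and 270.2 and 727, 795 and 129 CPM. At least 5 UMIs of S100a8 and S100a9 were held by 1, 0 and 0 of the αPD-1 cells and by 26, 12 and 0 of the αPD-1 + corin cells, and the number of gated neutrophils in the libraries was 2, 4 and 2 against 168, 443 and 26. The 9 fibroblast genes summed to 3182 CPM in αPD-1 + corin replicate 1, to 0 CPM in the other 2 samples of that group and to at most 10.2 CPM in the αPD-1 samples. The 15 B cell genes summed to 168 to 683 CPM with αPD-1 and 115 to 251 CPM with αPD-1 + corin, the 15 T cell genes to 43.9 to 143 CPM with αPD-1 and 45.6 to 82.7 CPM with αPD-1 + corin, the 11 melanoma genes to 120.1 to 183 CPM with αPD-1 and 118 to 213 CPM with αPD-1 + corin and the 17 mature DC genes to 620.5 to 856 CPM with αPD-1 and 510.01 to 770.3 CPM with αPD-1 + corin. Cells with at least 5 UMIs of S100a8 and S100a9, or at least 3 UMIs of collagen or melanoma genes, were 1, 1 and 0 with αPD-1 and 30, 13 and 1 with αPD-1 + corin, and the share of cDC2 and the called genes are given below with and without them.

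cDC2 made up 0.605%, 0.452% and 0.497% of the kept barcodes with αPD-1 (0.518% ± 0.0785, SD, n = 3). With αPD-1 + corin they made up 1.43%, 1.29% and 0.548% (1.09% ± 0.476, SD, n = 3). The first 2 αPD-1 + corin samples were above every αPD-1 sample, and the third lay within their range. The two-sided exact permutation test over samples gave p = 0.2 (adjusted p = 0.8 over 4 share tests), and 3 samples against 3 cannot give a p below 0.1. Without the cells that held UMIs of another lineage the shares were 0.582%, 0.425% and 0.497% and 1.07%, 0.982% and 0.527%, and the difference of the means was 0.359 points in place of 0.573 points (exact permutation test, p = 0.2). The lowest share had a 95% Wilson interval of 0.282% to 0.722% and the highest one of 1.198% to 1.71% (counting error only). Among dendritic cells, counted as cDC2, cDC1 and mature DC together, cDC2 made up 51.9%, 47.2% and 34.4% with αPD-1 and 45.8%, 38.6% and 33.8% with αPD-1 + corin. The means were 44.5% ± 9.08 and 39.4% ± 6.05 (SD, n = 3 each) with overlap between the groups (exact permutation test, p = 0.4, adjusted p = 0.8). The share of cDC1 in this sum was 40.4% ± 5.91 and 41.6% ± 17.03, and that of mature DC was 15.1% ± 11.7 and 19.01% ± 12.4 (exact permutation test, adjusted p = 1 each). In edgeR's quasi-likelihood test on the numbers of cells in all classes, the log2 ratio of cDC2 was 1.22 (SE 0.60, adjusted p = 0.134).

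The lectins that passed the gate differed in mix. Cells with Cd209a UMIs and none of Mgl2 made up 77.8%, 64.7% and 63.6% of the αPD-1 cDC2 and 47.1%, 35.2% and 66.7% of the αPD-1 + corin cDC2. Cells with both made up 11.1%, 5.88% and 22.7% against 33.6%, 24.1% and 29.6%, and each αPD-1 + corin sample was above each αPD-1 sample. Cells with Mgl2 alone made up 11.1%, 29.4% and 13.6% against 19.3%, 40.7% and 3.70%, with αPD-1 + corin replicate 3 the lowest of the 6 samples. Mgl2, a galactose-type lectin, was at 117, 224 and 170.1 CPM with αPD-1 and 666, 1445 and 258 CPM with αPD-1 + corin. Cd209a, the mouse relative of human DC-SIGN, was at 1199, 887 and 991 CPM with αPD-1 and 922, 607 and 866 CPM with αPD-1 + corin. These values chose the cells and were not tested.

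**Figure D1:**
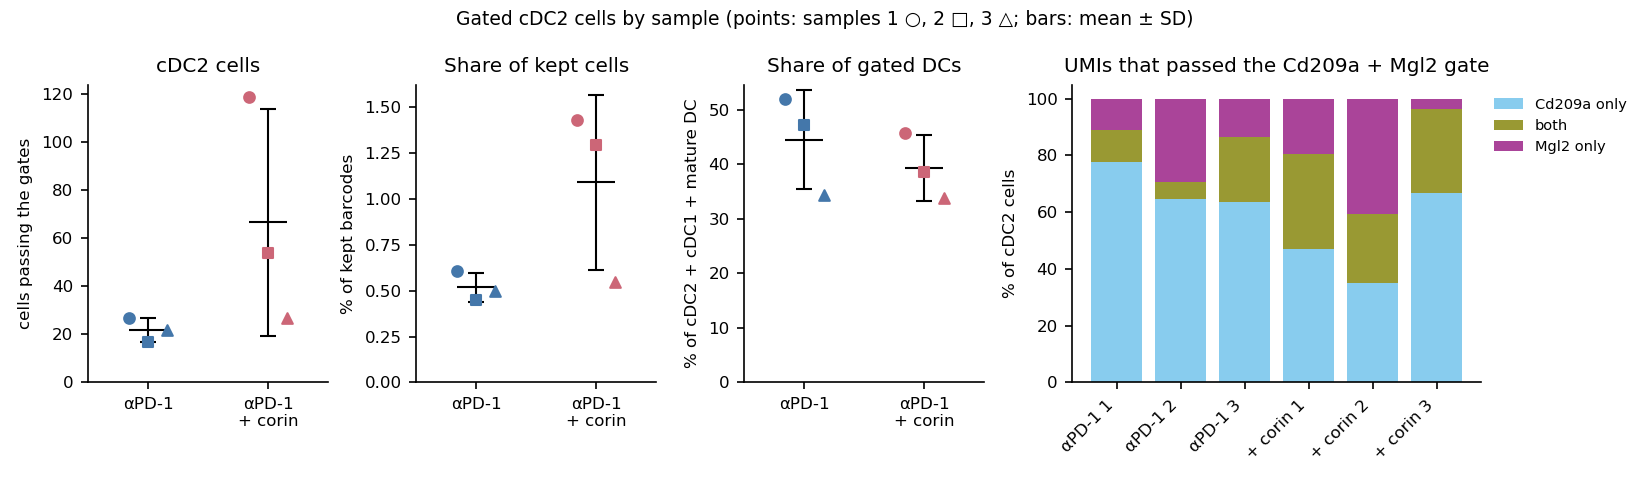
The panels plot, for each sample, the number of cDC2 cells, their percentage of kept barcodes, their percentage of cDC2, cDC1 and mature DC together (points, with the mean and SD of 3 samples as lines), and the percentage of cDC2 that held UMIs of Cd209a only, Mgl2 only or both (stacked bars). αPD-1 + corin replicate 3, with 27 cells and 0.548% of kept barcodes, sits with the αPD-1 samples, and the other 2 samples of its group lie above them.

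The effect of corin added to αPD-1 on cDC2 was compared by summing UMIs over the cDC2 of each sample and fitting the 6 sums with edgeR. Of 2267 genes that passed the count filter and were not used by the gates, 1 rose (0.0441%) and 5 fell (0.221%) in the αPD-1 + corin samples at an adjusted p under 0.05. The gene that rose was the chemokine Ccl17, which passed the count filter only through the αPD-1 + corin samples. Those that fell were the inducible heat shock proteins Hspa1b and Hspa1a, the cholesterol synthesis enzymes Hmgcs1 and Fdps, and the predicted gene Gm26917. Of these, Hmgcs1 passed the count filter only through the αPD-1 samples. Without overlap between the samples of the groups, 144 genes (6.35%) were higher and 177 genes (7.81%) were lower, 237 genes had an unadjusted p under 0.05, and the median log2 fold change over all 2267 was -0.01. The count of calls depended on single libraries. It was 0 higher and 0 lower without αPD-1 replicate 1, 0 and 5 without αPD-1 replicate 2, 0 and 0 without αPD-1 replicate 3, 1 and 0 without αPD-1 + corin replicate 1, 1 and 1 without αPD-1 + corin replicate 2, and 56 and 26 without αPD-1 + corin replicate 3. With the cells that held UMIs of another lineage left out, 2 genes rose and 6 fell, and DESeq2 called 7 and 9 on the same sums. Each of the 6 genes passed without those cells as well, with log2 fold changes of 5.70 for Ccl17, -2.65 for Hspa1b, -2.26 for Hspa1a, -1.78 for Hmgcs1, -1.74 for Fdps and -1.69 for Gm26917 (edgeR adjusted p of 0.0105 to 0.0496).

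**Figure D2:**
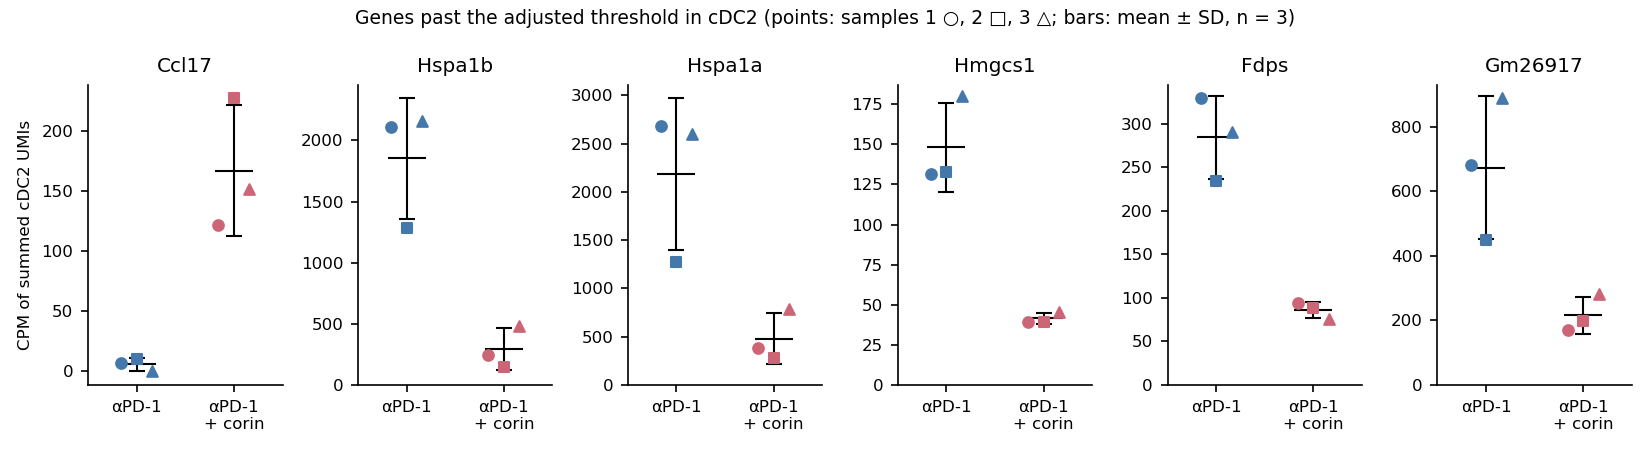
Each panel plots the CPM of 1 gene in the summed UMIs of cDC2, with a point per sample and lines for the mean and SD of the 3 αPD-1 samples and the 3 αPD-1 + corin samples. The groups do not overlap in any panel, and Ccl17 lies at 0 to 10.2 CPM in the αPD-1 samples and at 122 to 228 CPM in the others.

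Heat shock proteins are chaperones that hold and refold other proteins, and their genes are switched on by heat shock factor after heat, handling or other stress on proteins. Hspa1b (ENSMUSG00000090877, chromosome 17, 35175412 to 35178214, minus strand, GRCm39) was at 2114, 1284 and 2162 CPM with αPD-1 and 246, 149 and 486 CPM with αPD-1 + corin. Every αPD-1 sample was above every αPD-1 + corin sample, and the gene fell (log2 fold change -2.71, SE 0.36, edgeR adjusted p = 0.0165). A UMI of it was found in 24 of 27, 13 of 17 and 19 of 22 αPD-1 cells and in 41 of 119, 22 of 54 and 18 of 27 αPD-1 + corin cells, and no cell held more than 26.4% of a sample's UMIs. Its neighbour Hspa1a (ENSMUSG00000091971, chromosome 17, 35188166 to 35191132, minus strand) was at 2677, 1274 and 2602 CPM with αPD-1 and 380.2, 279 and 782 CPM with αPD-1 + corin, again with no overlap, and fell (log2 fold change -2.22, SE 0.37, edgeR adjusted p = 0.0397). The 2 genes are near-identical copies between which reads can be misassigned, so each single value is uncertain, and their sum was 4791, 2558 and 4764 CPM with αPD-1 and 626, 428 and 1269 CPM with αPD-1 + corin. Hspa1b lost its call without αPD-1 replicate 1 (0.143), αPD-1 replicate 3 (0.191) or αPD-1 + corin replicate 1 (0.0953), and Hspa1a lost it without αPD-1 replicate 1 (0.212), αPD-1 replicate 3 (0.254), αPD-1 + corin replicate 1 (0.292) or αPD-1 + corin replicate 2 (0.1599) (adjusted p in parentheses).

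The 250 bases before the start sites of both genes are shown because the pair had the largest falls among the called genes and because they show how alike the copies are. They are RefSeq sequences of GRCm38.p6 on the minus strand, Hspa1b at chr17:34959239-34959488 and Hspa1a at chr17:34972157-34972406, written 5′ to 3′ along the gene, and the capitals mark a match to GAANNTTC, letters of the element bound by heat shock factor, which read the same on both strands.
Hspa1b: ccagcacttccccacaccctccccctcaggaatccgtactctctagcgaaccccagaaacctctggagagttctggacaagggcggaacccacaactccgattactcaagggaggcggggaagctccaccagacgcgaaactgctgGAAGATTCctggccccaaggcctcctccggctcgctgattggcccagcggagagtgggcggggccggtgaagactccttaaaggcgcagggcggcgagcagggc
Hspa1a: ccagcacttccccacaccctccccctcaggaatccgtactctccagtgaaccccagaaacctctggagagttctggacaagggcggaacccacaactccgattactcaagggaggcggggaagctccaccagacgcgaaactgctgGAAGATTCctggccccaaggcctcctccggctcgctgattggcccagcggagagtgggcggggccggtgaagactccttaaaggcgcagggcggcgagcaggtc
The copies have the same base at 247 of the 250 positions (98.8%), and the match ends 96 bases before the start site in both. Of 32851 such promoter windows, 2199 (6.69%) hold a match to GAANNTTC. Of the 22 tested genes of the heat shock and immediate early list with an entry, 6 hold one, namely Hspa1a, Hspa1b, Dnaja1, Hspb1, Fosl2 and Jun. A match is a description of these letters and was not tested as a binding site.

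Of the 28 genes of the list of immediate early and heat shock genes, 26 passed the count filter, 2 fell, none rose, and 10 were lower and 0 higher without overlap. Over all genes tested, 7.81% were lower and 6.35% higher without overlap. The median log2 fold change of the 26 was -0.39, against -0.01 over all genes tested, and -0.43 without the cells that held UMIs of another lineage. The remaining chaperones of the list did not pass the test. Dnajb1, a cochaperone of Hsp70 proteins, was at 446, 418 and 240.2 and 120.2, 118 and 182 CPM (log2 fold change -1.43, SE 0.26, edgeR adjusted p = 0.0652). Hsph1, an exchange factor for Hsp70, was at 314, 224 and 380.3 and 55.2, 36.4 and 189.9 CPM (log2 fold change -1.99, SE 0.46, adjusted p = 0.172). Both had every αPD-1 sample above every αPD-1 + corin sample, but Hsph1 passed the count filter only through the αPD-1 samples. Hsp90aa1, the inducible form of Hsp90, was at 2267, 1457 and 1231 and 697, 628 and 957 CPM (log2 fold change -1.11, SE 0.25, adjusted p = 0.1495), and Hspa8, the constitutive Hsp70, at 3269, 3587 and 2712 and 1556, 1533 and 2598 CPM (log2 fold change -0.73, SE 0.20, adjusted p = 0.236). The mitochondrial chaperone Hspd1, from a list of other chaperones that was added after values were seen, was at 205, 245 and 210.2 and 98.5, 100.2 and 144 CPM (log2 fold change -0.95, SE 0.24, adjusted p = 0.195), and the endoplasmic reticulum chaperone Hsp90b1 of the same list was at 453, 550.3 and 350.3 and 567, 610.2 and 653 CPM (log2 fold change 0.47, SE 0.20, adjusted p = 0.439), with the αPD-1 + corin samples higher. Among the immediate early transcription factors, Jun was at 2069.8, 1885 and 1811 and 900.3, 947 and 1686 CPM (log2 fold change -0.70, SE 0.22, adjusted p = 0.288) and Atf3 at 1879.7, 1508 and 1511 and 965, 1141 and 1481 CPM (log2 fold change -0.43, SE 0.19, adjusted p = 0.454). Egr1 was at 139, 163 and 210.2 and 669.8, 507 and 167 CPM (log2 fold change 1.53, SE 0.44, adjusted p = 0.239), with αPD-1 + corin replicate 3 inside the range of the αPD-1 samples.

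Hmgcs1 makes HMG-CoA at the entry of the mevalonate pathway, the route by which cells build cholesterol, and Fdps makes farnesyl pyrophosphate further along it. Hmgcs1 (ENSMUSG00000093930, chromosome 13, 120151915 to 120170470, plus strand, GRCm39) was at 132, 132 and 180.1 CPM with αPD-1 and 39.4, 39.5 and 45.6 CPM with αPD-1 + corin. These stand for 18, 13 and 18 and 20, 13 and 6 UMIs, so the values of single samples are imprecise. The groups were apart, and the gene fell (log2 fold change -1.79, SE 0.29, edgeR adjusted p = 0.0397). Hmgcs1 passed the count filter only through the αPD-1 samples, so with its αPD-1 + corin counts it could enter the test only as a lower gene. Fdps (ENSMUSG00000059743, chromosome 3, 89000888 to 89019213, minus strand) was at 329, 234 and 290.2 CPM with αPD-1 and 94.6, 88.04 and 75.96 CPM with αPD-1 + corin, from 45, 23 and 29 and 48, 29 and 10 UMIs, and fell (log2 fold change -1.64, SE 0.24, edgeR adjusted p = 0.02498). No cell held more than 34.8% of a sample's Fdps UMIs, whereas 1 cell held 4 of the 6 Hmgcs1 UMIs of αPD-1 + corin replicate 3 (66.7%) and 1 cell 8 of the 18 of αPD-1 replicate 1 (44.4%). Hmgcs1 was not past the threshold without αPD-1 replicate 1 (0.212), αPD-1 replicate 2 (0.1602), αPD-1 replicate 3 (0.241), αPD-1 + corin replicate 1 (0.292) or αPD-1 + corin replicate 2 (0.228), nor Fdps without αPD-1 replicate 1 (0.212), αPD-1 replicate 3 (0.191), αPD-1 + corin replicate 1 (0.121) or αPD-1 + corin replicate 2 (0.1599). With 17 cells drawn from each sample, neither passed (adjusted p = 0.382 each), and their log2 fold changes were -1.45 and -1.66. With the replicate number as a block Hmgcs1 did not pass either (adjusted p = 0.0634).

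The 250 bases before the start site of Hmgcs1 (RefSeq, GRCm38.p6, chr13:119690101-119690350, plus strand) are shown with capitals at a match to TCACCCCAC, letters of a sterol regulatory element, to show the sequence before a gene that fell.
Hmgcs1: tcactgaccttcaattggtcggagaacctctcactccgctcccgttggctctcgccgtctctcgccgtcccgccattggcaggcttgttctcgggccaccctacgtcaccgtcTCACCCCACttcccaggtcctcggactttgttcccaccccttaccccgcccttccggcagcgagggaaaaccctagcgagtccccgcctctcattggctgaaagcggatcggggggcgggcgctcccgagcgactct
The match ends 128 bases before the start site. On either strand, 163 of the 32851 promoter windows (0.496%) hold these letters, and 1 of the 4 tested genes of the pathway list with an entry, Hmgcs1, does.

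The list of cholesterol synthesis genes was drawn up after these values were seen and is no independent evidence of its direction. Of its 22 genes, 5 passed the count filter. Hmgcs1 and Fdps fell, and the other 3 had negative log2 fold changes and did not pass. Cyp51, an enzyme of the later sterol steps, was at 197, 81.5 and 130.1 and 65.01, 69.8 and 75.96 CPM (log2 fold change -0.98, SE 0.33, edgeR adjusted p = 0.3502), and Srebf2, the transcription factor of the pathway, at 161, 163 and 170.1 and 86.7, 121 and 122 CPM (log2 fold change -0.57, SE 0.26, adjusted p = 0.471). In both genes, as in Hmgcs1 and Fdps, every αPD-1 sample was above every αPD-1 + corin sample. Over all genes tested, 7.81% were lower without overlap and 0.221% were called lower. Cyp51, like Hmgcs1, passed the count filter only through the αPD-1 samples. Pmvk, a kinase of the mevalonate pathway, was at 95.1, 153 and 90.1 and 59.1, 63.8 and 98.7 CPM (log2 fold change -0.65, SE 0.32, adjusted p = 0.473), with overlap.

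Gm26917 was at 680.2, 448 and 891 CPM with αPD-1 and 171, 197 and 281 CPM with αPD-1 + corin and fell (log2 fold change -1.65, SE 0.28, edgeR adjusted p = 0.0397). It was the least stable of the 6 calls, with 10 of 21 alternatives past the threshold. Its log2 fold change was -0.28 (adjusted p = 0.872) with 17 cells drawn from each sample and -1.03 (adjusted p = 0.545) in cells with a Cd209a UMI, and the call was lost without αPD-1 replicate 1 (0.212), αPD-1 replicate 3 (0.221), αPD-1 + corin replicate 1 (0.292) or αPD-1 + corin replicate 2 (0.228). Its identifier is not in the GENCODE vM39 annotation used here, so no position is given.

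**Figure D3:**
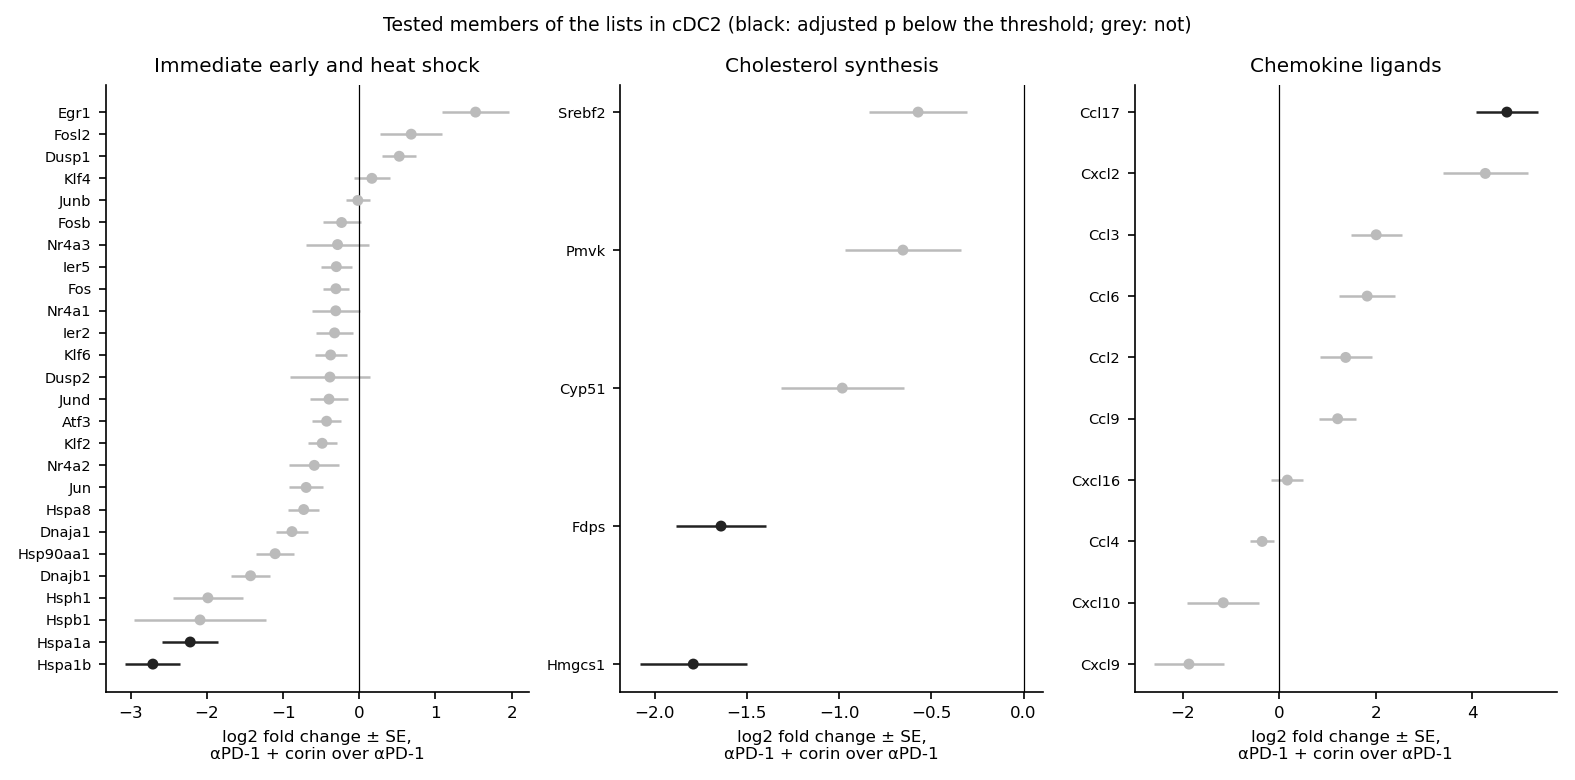
Points are log2 fold changes of the αPD-1 + corin over the αPD-1 samples in cDC2, and lines are ± 1 SE, for each tested gene of 3 lists, in black where the adjusted p was under 0.05 and in grey otherwise. In the heat shock and immediate early list 22 of 26 points lie below 0, in the cholesterol list all 5 do, and in the chemokine list 7 of 10 lie above 0 with only Ccl17 in black.

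Chemokines are secreted proteins that recruit cells, and Ccl17 attracts T cells that carry Ccr4. Ccl17 (ENSMUSG00000031780, chromosome 8, 95534358 to 95538664, plus strand, GRCm39) was at 7.31, 10.2 and 0 CPM with αPD-1 and 122, 228 and 152 CPM with αPD-1 + corin, from 1, 1 and 0 and 62, 75 and 20 UMIs, and rose (log2 fold change 4.72, SE 0.64, edgeR adjusted p = 0.0165). The ratio of the pooled counts, 157 UMIs of 968646 over 2 of 334782, was 27.1 (exact 95% interval 7.39 to 226, counting error only). Ccl17 passed the count filter only through the αPD-1 + corin samples, so with its αPD-1 counts it could enter the test only as a higher gene. The rise rested on few cells. Only 6 of 119, 2 of 54 and 1 of 27 αPD-1 + corin cells held a Ccl17 UMI, against 1 of 27, 1 of 17 and 0 of 22 αPD-1 cells, and the richest cell of each αPD-1 + corin sample held 33 of its 62, 74 of its 75 and all 20 of its UMIs. Without the richest cell of each sample, 29, 1 and 0 UMIs were left in the αPD-1 + corin samples and none in the αPD-1 samples. Ccl17 is also a gene of mature DC, where it was at 0, 0 and 282 and 388, 286 and 198 CPM, and in C1q macrophages it was at 0.386, 0 and 0 and 1.198, 0 and 0 CPM. Within cDC2 the sums of the 17 mature DC genes, given above, overlapped between the groups. Those sums run over all cDC2, in which the gate limited Fscn1, Ccl22 and Cacnb3. They cannot show whether the few cells with Ccl17 were maturing, which was not tested. The call was lost without αPD-1 replicate 1 (0.143), αPD-1 replicate 2 (0.0504) or αPD-1 replicate 3 (0.181). Ccl17 was below the count filter with a Cd209a UMI required, with equal numbers of cells and with cells that held monocyte UMIs left out, and DESeq2 gave it no adjusted p.

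Of 20 chemokine ligand genes, 19 were in the files and 10 passed the count filter, of which 1 rose, none fell, and 3 were higher and 0 lower without overlap. Their median log2 fold change was 1.30. Without overlap, 6.35% of all genes tested were higher and 7.81% lower. Cxcl2, which draws neutrophils, was at 263, 81.5 and 0 CPM with αPD-1 and 3519, 2933 and 403 CPM with αPD-1 + corin (log2 fold change 4.28, SE 0.88, edgeR adjusted p = 0.126). Ccl3, a chemokine of monocytes and T cells, was at 293, 30.6 and 220.2 and 920.03, 862 and 372 CPM (log2 fold change 2.01, SE 0.53, adjusted p = 0.213). In both genes every αPD-1 + corin sample was above every αPD-1 sample, replicate 3 being the lowest of its group. For Cxcl2 this rested on 1 cell, since 48 of the 53 UMIs of αPD-1 + corin replicate 3 lay in a single cell. Without the richest cell of each sample 7, 2 and 0 UMIs were left with αPD-1 and 1634, 829 and 5 with αPD-1 + corin, and replicate 3 of the latter group lay within the range of the αPD-1 samples. Ccl3 was left with 28, 1 and 15 and 416, 226 and 37 UMIs. Ccl6 was at 344, 71.3 and 440.3 and 1050.05, 1518 and 334 CPM (log2 fold change 1.83, SE 0.58, adjusted p = 0.288), Ccl9 at 183, 132 and 170.1 and 376, 513 and 159.5 CPM (log2 fold change 1.21, SE 0.39, adjusted p = 0.288) and Ccl2, which recruits monocytes, at 299.9, 296 and 110.1 and 1095, 228 and 433 CPM (log2 fold change 1.38, SE 0.54, adjusted p = 0.393). For these 3 the groups overlapped, through αPD-1 + corin replicate 3 for Ccl6 and Ccl9 and through replicate 2 for Ccl2. Cxcl9, an interferon gamma target that attracts Cxcr3-bearing T cells, was at 299.9, 122 and 50.04 and 35.5, 9.11 and 144 CPM (log2 fold change -1.87, SE 0.73, adjusted p = 0.393), with αPD-1 + corin replicate 3 again among the αPD-1 samples. The neutrophil genes S100a8 and S100a9 were high in the same 2 samples as Cxcl2, and Cxcl2 in cDC2 was at 9.88% of its highest level in another gated lineage. Without the cells that held UMIs of another lineage, Cxcl2 had a log2 fold change of 5.00 (edgeR adjusted p = 0.0105) and Ccl17 of 5.70 (adjusted p = 0.0105). Ccl3 had one of 0.99 (adjusted p = 0.501) there, and the median of the list was 1.07. The part of free RNA in these values was not tested.

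**Figure D4:**
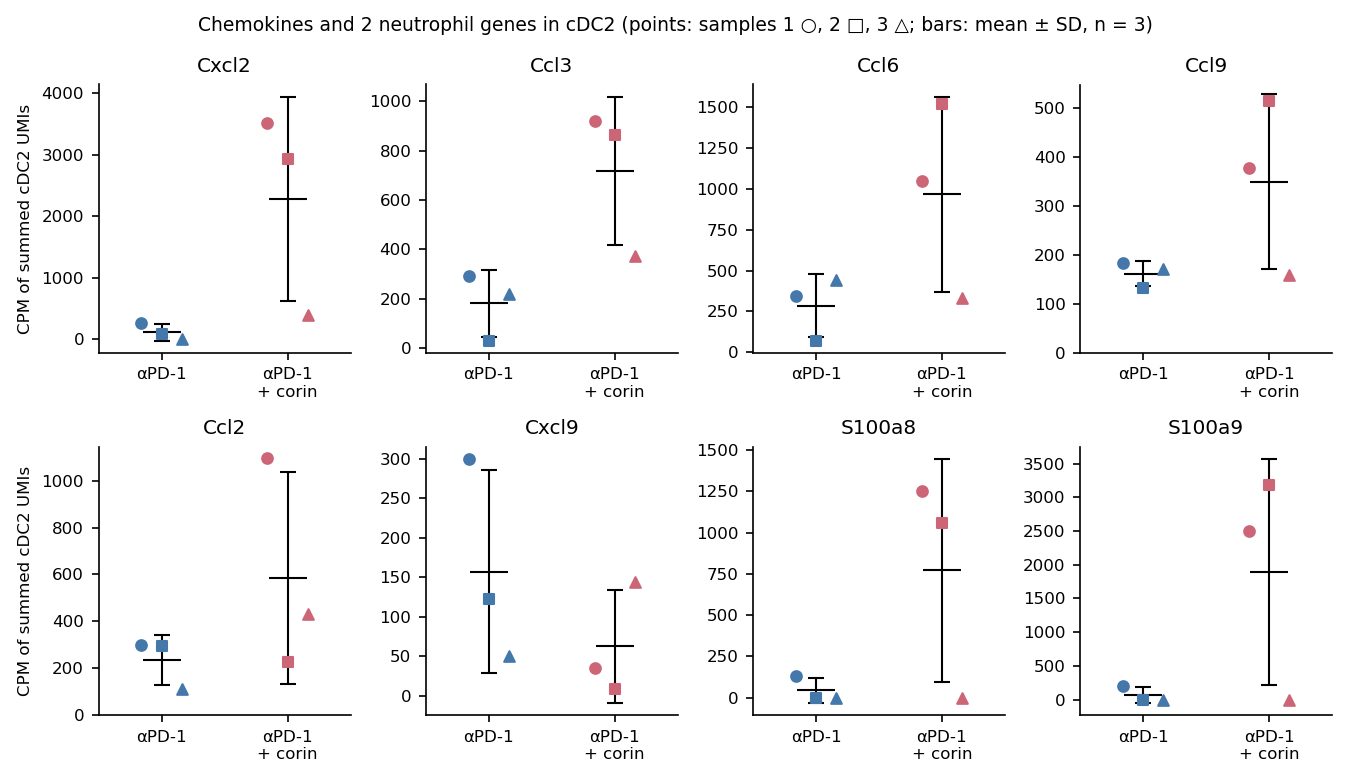
Each panel plots the CPM of 1 gene in the summed UMIs of cDC2, with a point per sample and lines for the mean and SD of 3 samples per group. Cxcl2 at 2933 and 3519 CPM and S100a9 at 3181 and 2498 CPM are high in αPD-1 + corin replicates 2 and 1, and replicate 3 of that group has 403 CPM of Cxcl2 and no UMI of S100a8 or S100a9.

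Antigen presentation by MHC class II needs the H2-DM proteins, which load peptides, and proteases such as cathepsin S that trim the invariant chain. Of 18 genes of this pathway outside the gate, 13 passed the count filter and none passed the test in either direction. Their median log2 fold change was 0.44, with 2 higher and 0 lower without overlap (6.35% and 7.81% over all genes tested). H2-DMa was at 789.9, 754 and 721 and 1141, 1087 and 866 CPM (log2 fold change 0.50, SE 0.19, edgeR adjusted p = 0.389), and Ctss, cathepsin S, at 1082, 1253 and 1201 and 1452, 1976 and 1428 CPM (log2 fold change 0.51, SE 0.19, adjusted p = 0.388). Those are the 2 genes without overlap. H2-Ab1, which the gate used, was at 5727, 7205 and 5764 and 8588, 9062 and 7026 CPM. Among 23 MHC class I genes 19 were tested, 0 passed, and the median was -0.10. Costimulatory ligands, which T cells need beside antigen, had a median of -0.53 over 9 tested of 15 genes, with 0 calls. Lower without overlap were 2 of them, Slamf7 and Icam1 (7.81% over all genes tested). Cd86 was at 497, 255 and 380.3 and 225, 288 and 266 CPM (log2 fold change -0.53, SE 0.26, edgeR adjusted p = 0.478), Cd83 at 409.6, 367 and 200.2 and 189, 200.4 and 167 CPM (log2 fold change -0.76, SE 0.26, adjusted p = 0.353) and Cd40 at 154, 112 and 70.1 and 35.5, 63.8 and 91.2 CPM (log2 fold change -1.01, SE 0.40, adjusted p = 0.399). In all 3 the groups overlapped in part, at the lower end of the αPD-1 samples. Of 18 inhibitory ligands and receptors, 7 were tested and 0 passed, and 1 was higher and 0 lower without overlap (6.35% and 7.81% over all genes tested). Cd200r1, an inhibitory receptor, was at 21.9, 61.1 and 60.05 and 114, 100.2 and 91.2 CPM (log2 fold change 1.26, SE 0.38, adjusted p = 0.256), higher in each αPD-1 + corin sample. It passed the count filter only through those samples, so at its αPD-1 level it could enter the test only as a higher gene.

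Of 22 cytokine genes, 5 passed the count filter and 0 passed the test, and the list summed to 1536, 795 and 871 CPM with αPD-1 and 1675, 2061 and 684 CPM with αPD-1 + corin, with overlap. Il12b, a subunit of the cytokine that polarizes T cells to make interferon gamma, had 0, 0 and 0 and 0, 0 and 3 UMIs, and a count of 0 in the 334782 UMIs of the αPD-1 cells allows up to 8.96 CPM. Osm, a cytokine of the interleukin 6 family, was at 102, 20.4 and 60.05 and 164, 158 and 98.7 CPM (log2 fold change 1.22, SE 0.43, edgeR adjusted p = 0.372), with overlap. Of 41 interferon-stimulated genes, 40 were in the files and 24 were tested. None passed, 21 of 24 had negative log2 fold changes, and the median was -0.34. Without overlap, 1 was higher and 1 lower (6.35% and 7.81% over all genes tested). Zbp1, a sensor of nucleic acids, was at 285, 255 and 180.1 and 76.8, 88.04 and 189.9 CPM (log2 fold change -1.16, SE 0.33, adjusted p = 0.239), with overlap. Rtp4, the 1 gene higher without overlap, was at 43.9, 40.8 and 20.02 and 86.7, 88.04 and 83.6 CPM (log2 fold change 1.32, SE 0.37, adjusted p = 0.239). It passed the count filter only through the αPD-1 + corin samples. The interferon gamma list (14 tested of 29) had a median of -0.21 and the list of targets of NF-kB, a transcription factor of inflammation, one of -0.08 (18 tested of 25), with 0 calls in each. Of the 18 NF-kB genes tested, 7 had positive and 11 negative log2 fold changes. Without overlap, 1 of them was higher and 3 were lower (6.35% and 7.81% over all genes tested). Ptgs2, the inducible cyclooxygenase, was higher without overlap at 87.8, 50.95 and 0 and 201, 288 and 114 CPM (log2 fold change 2.12, SE 0.58, adjusted p = 0.232). It passed the count filter only through the αPD-1 + corin samples.

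Genes of cDC2 identity outside the gate did not differ past the threshold. Of 24, 15 were tested, 0 passed, 0 were without overlap, and the median log2 fold change was 0.12. Clec10a was at 395, 245 and 250.2 and 559.5, 416 and 281 CPM (log2 fold change 0.56, SE 0.30, edgeR adjusted p = 0.509). Of 18 genes shared by dendritic cells, 11 were tested and 0 passed, with a median of -0.13. Without overlap, 1 was higher and 1 lower (6.35% and 7.81% over all genes tested). Ffar2, a receptor of short-chain fatty acids, was at 7.31, 20.4 and 50.04 and 78.8, 106 and 98.7 CPM (log2 fold change 1.97, SE 0.50, adjusted p = 0.195) and was higher without overlap. It passed the count filter only through the αPD-1 + corin samples. Cbfa2t3, a transcriptional corepressor, was at 249, 377 and 270.2 and 193, 228 and 228 CPM (log2 fold change -0.42, SE 0.21, adjusted p = 0.492), lower without overlap. Of 30 monocyte and macrophage genes 18 were tested and 0 passed, with a median of 0.33 and 2 higher without overlap (6.35% over all genes tested). Mrc1, the mannose receptor, was at 58.5, 20.4 and 140.1 and 353, 513 and 122 CPM (log2 fold change 2.32, SE 0.58, adjusted p = 0.195), with overlap, and Ctsd, the lysosomal protease cathepsin D, at 102, 81.5 and 40.03 and 339, 288 and 122 CPM (log2 fold change 1.84, SE 0.43, adjusted p = 0.179), without overlap. Fc receptors, which bind antibodies, gave 0 calls in 9 tested of 12, and pattern recognition receptors, which detect microbes, 0 calls in 10 tested of 30 with 28 in the files. Hcar2, a receptor for hydroxybutyrate and niacin outside the lists, named after its value was seen, was at 21.9, 50.95 and 0 and 232, 322 and 83.6 CPM (log2 fold change 3.27, SE 0.68, adjusted p = 0.127). It passed the count filter only through the αPD-1 + corin samples.

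The share of cDC2 with a UMI was compared for 10 genes after each cell was thinned to 1000 UMIs, so that depth was equal, and no cDC2 cell was left out. None passed the exact permutation test over samples (adjusted p from 0.667 to 1). Ccr2, the receptor by which monocytes leave the marrow, was found in 38.98% ± 3.19 of αPD-1 and 29.1% ± 4.504 of αPD-1 + corin cDC2 (SD, n = 3 each, exact permutation test, p = 0.1, the smallest possible), and in 5.65% and 11.2% of T cells, some of which express it. Without thinning these shares were 63.996% and 65.6%, so the order of the groups depended on depth. Il1b, an inflammatory cytokine, was found in 17.3% ± 5.404 and 29.4% ± 19.1 of cDC2, beside 2.44% and 21.1% of T cells, which should lack it. The T cell share moved with treatment as the cDC2 share did, and the part of free RNA was not tested. Median depth before thinning of T cells was 2505 to 3163 UMIs with αPD-1 and 3026 to 4566 UMIs with αPD-1 + corin.

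Of 26 genes of hypoxia and glycolysis, 20 were tested, 0 passed, 19 had positive log2 fold changes and the median was 0.65. Higher without overlap were 2 of the 20 (6.35% over all genes tested). These were Gpi1, a glycolytic isomerase, at 322, 245 and 190.1 and 538, 486 and 379.8 CPM (log2 fold change 0.94, SE 0.25, edgeR adjusted p = 0.228), and Hk2, a hexokinase, at 65.8, 40.8 and 20.02 and 100.5, 124 and 91.2 CPM (log2 fold change 1.31, SE 0.39, adjusted p = 0.2505). Hk2 passed the count filter only through the αPD-1 + corin samples. The iron storage subunit Fth1 was at 4169, 3893 and 3893 and 8829.9, 7471 and 4573 CPM (log2 fold change 0.86, SE 0.24, adjusted p = 0.236), without overlap. The 9 tested of 15 metallothionein and redox genes had a median of 0.25, with 3 higher and 0 lower without overlap (6.35% and 7.81% over all genes tested). Lipid and lysosome genes (7 tested of 21) had a median of 0.83 and 0.50 without the cells that held UMIs of another lineage. The targets of the compound were barely measured, since 1 of 16 CoREST complex genes passed the count filter. This was Hdac1, a deacetylase of the complex, at 95.1, 112 and 110.1 and 80.8, 78.9 and 60.8 CPM (log2 fold change -0.39, SE 0.28, adjusted p = 0.637). Of 33 splicing factors 25 were tested and 0 passed (median -0.16), and 21 of the 25 had negative log2 fold changes. Without overlap, 1 was higher and 3 were lower (6.35% and 7.81% over all genes tested). Of 24 histone and deacetylase-inhibitor response genes 5 were tested and 0 passed. Complement genes outside the gate (4 tested of 13), cell cycle genes (3 of 25) and chemokine receptor and migration genes (10 of 23) gave 0 calls. In the last list 1 of the 10 tested genes was higher and 2 were lower without overlap (6.35% and 7.81% over all genes tested). Itgb2, the integrin chain of leukocyte adhesion, was at 212, 204 and 110.1 and 303, 370.4 and 311 CPM (log2 fold change 0.94, SE 0.25, adjusted p = 0.228) and Itga4, an integrin that binds Vcam1, at 176, 326 and 270.2 and 80.8, 112 and 175 CPM (log2 fold change -1.12, SE 0.31, adjusted p = 0.236), the first higher and the second lower without overlap.

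Whether these effects were particular to cDC2 was asked by testing the difference of the corin effect between cDC2 and each of 3 other classes of the same samples. The cDC1 gate held 19, 17 and 24 αPD-1 and 80, 46 and 49 αPD-1 + corin cells, the mature DC gate 6, 2 and 18 and 61, 40 and 4, and the C1q macrophage gate 503, 613 and 409 and 3746, 1074 and 890. At an adjusted p under 0.05, edgeR found a difference for 0 of 3349 genes (0%) against cDC1, 0 of 2575 (0%) against mature DC and 0 of 9441 (0%) against C1q macrophages, and 337, 96 and 595 genes had an unadjusted p under 0.05. Single libraries changed these counts. Without αPD-1 + corin replicate 3 there were 4 genes more positive and 14 more negative in cDC2 than in cDC1, 6 and 2 against mature DC, and 23 and 10 against C1q macrophages. Without αPD-1 + corin replicate 1 the counts were 0 and 1 against cDC1 and 9 and 22 against C1q macrophages, without replicate 2 of that group 8 and 4 against C1q macrophages, without αPD-1 replicate 2 they were 1 and 0 against cDC1 and 0 and 1 against C1q macrophages, and without αPD-1 replicate 3 they were 0 and 2 against cDC1.

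The genes that fell in cDC2 had these values elsewhere. Hspa1b was at 1709, 1355 and 776 and 284, 374 and 579 CPM in cDC1, with a log2 fold change of -1.60 (SE 0.30), and at 559, 404 and 430.5 and 95.04, 98.8 and 314 CPM in C1q macrophages, with -1.35 (SE 0.43). In mature DC its log2 fold change was -2.07 (SE 0.63). The αPD-1 samples were above the αPD-1 + corin samples without overlap in each of these classes, and the differences from cDC2 did not pass (interaction -1.10, SE 0.39, adjusted p = 0.363 against cDC1, and interaction -1.05, SE 0.28, adjusted p = 0.294 against C1q macrophages). Fdps was at 408, 299.6 and 363 and 184, 248 and 215 CPM in cDC1, with a log2 fold change of -0.68 (SE 0.20), and at 24.7, 26.4 and 34.9 and 28.8, 33.5 and 31.7 CPM in C1q macrophages, with 0.26 (SE 0.17). For this gene the αPD-1 and αPD-1 + corin samples were apart in cDC1 and overlapped in C1q macrophages, and the differences from cDC2 again did not pass (interaction -0.90, SE 0.31, adjusted p = 0.3501, and interaction -1.76, SE 0.35, adjusted p = 0.0692). Hmgcs1 had log2 fold changes of -1.06 (SE 0.32) in cDC1 and -0.09 (SE 0.16) in C1q macrophages. Cxcl2, which did not pass in cDC2, had log2 fold changes of 4.16 (SE 0.92) in cDC1 and 1.62 (SE 0.33) in C1q macrophages. None of these values passed in a fit of its own class. Those fits called 0 of 3584 genes in cDC1, 2 higher and 0 lower of 760 in mature DC, and 9 higher and 2 lower of 11107 in C1q macrophages. Ccl3 was among the mature DC calls (log2 fold change 9.45, SE 1.18, edgeR adjusted p = 0.0337), at 0, 0 and 0 and 944, 1096 and 316 CPM. It passed the count filter of that class only through the αPD-1 + corin samples, so it could enter the test only as a higher gene. With no UMI in the αPD-1 samples its fold change there depends on the prior count, and αPD-1 + corin replicate 3 held only 4 mature DC. Ccl3 had log2 fold changes of 1.82 (SE 0.56) in cDC1 and 1.22 (SE 0.27) in C1q macrophages, where it did not pass.

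**Figure D5:**
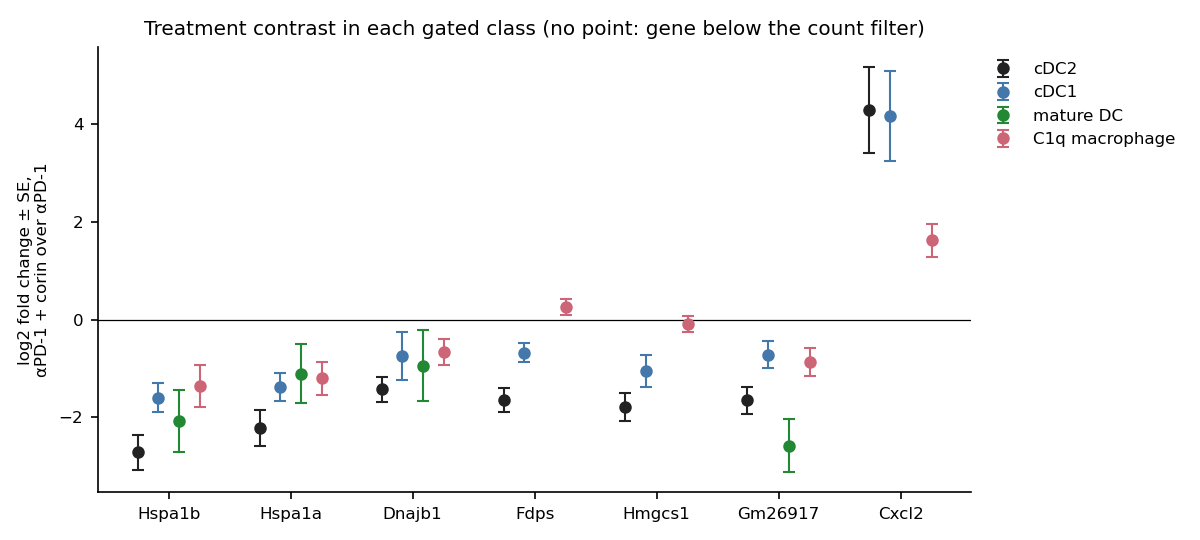
Points are log2 fold changes of the αPD-1 + corin over the αPD-1 samples for 7 genes in 4 gated classes, each fitted on its own, and lines are ± 1 SE, with no point where a gene was below the count filter. Hspa1b and Hspa1a lie below 0 in all 4 classes, Fdps and Hmgcs1 lie below 0 in cDC2 and cDC1 and near 0 in C1q macrophages, and no difference between cDC2 and another class passed the test.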

How the data were processed

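Droplet-based 5′ single-cell libraries of CD45+ cells of 6 B16-F10 tumor samples were analysed. The authors deposited raw UMI counts of 32285 genes per barcode without normalization, made with Cell Ranger 8.0 per the labels' processing notes (which also name Seurat 5.0.11), and the genome is given as GRCm39. Older gene symbols of the files were matched by Ensembl identifier, and positions were taken from GENCODE vM39. No columns of other samples were present.

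The limits on barcodes were 600 to 4000 genes and at most 10% of UMIs from mitochondrial genes. Cells were gated by UMI counts. Doublets were not removed. Scrublet scores (scanpy 1.11.5, 0.4% per 1000 barcodes) marked 3 of the 266 cDC2, and their removal was an alternative. For each gated class, UMIs of its cells were added up by sample, and edgeR 4.0.16 was fitted to the sums (quasi-likelihood test, TMM, filterByExpr, all 6 samples, no covariate, Benjamini-Hochberg over all genes tested, threshold 0.05). Differences between classes were interaction terms with the sample as a block. For shares, exact permutation tests over samples were two-sided. Intervals and floors cover counting error only. Fold changes of near-zero genes depend on the prior count. A gene that reached the count filter only in the samples of its higher group could be tested only in that direction.

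The cells, gene lists, tests and alternatives were chosen with earlier results of these data known. The lists of cholesterol genes and of other chaperones, and the alternatives that leave out cells with UMIs of another lineage or of monocyte genes, were added after values were seen, and a gene of the cholesterol list is not reported here. Named genes were the calls whose higher group had at least 20 CPM, with no overlap, no use in a gate and at least 5% of the highest level in another lineage, up to 10 each way, and examples of the lists. The other alternatives were DESeq2 1.42.0, RLE size factors, no count filter, a replicate block, each sample left out in turn, other gates and filters, and 17 cells drawn from each sample. The fits were tested on simulated data before use. R 4.3.3 and Python 3.11.15 were used. The MAST test over cells that the study's methods describe was not used here, since the sample was taken as the replicate.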

Additional observations from a re-analysis of the deposited data

How the results depend on the processing

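The 66 αPD-1 cells held 334782 UMIs, a count of 0 in which allows up to 8.96 CPM, and a gene without a call is not shown to be unchanged. Of 120 values of the 6 named genes under alternatives, 79 passed with the same direction, 41 had the same direction without passing, and none reversed. In 6 further cases there was no value, 4 of them for Ccl17 and 1 each for Hmgcs1 and Fdps, because the gene was below the count filter or, for Ccl17 with DESeq2, had no adjusted p. The counts of genes higher and lower in cDC2 were 1 and 5. They were 118 and 26 of 14210 genes without a filter on low counts, 7 and 9 with DESeq2, and 0 to 56 and 0 to 26 with 1 sample left out. Changed gates gave 3 higher genes with at least 3 UMIs of Cd209a and Mgl2, 0 and 3 with a Cd209a UMI required, 3 lower with a mitochondrial limit of 5% and 1 lower with no upper limit on genes. With equal numbers of cells they were 0 and 1. With cells of another lineage left out 2 genes were higher, and with monocyte UMIs left out the counts were 0 and 0, where 591 genes were tested. Where no cause is named, the cause was not tested.

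A fit with the replicate number as a block called 7 genes higher and 5 lower, and Hmgcs1 was not among them (adjusted p = 0.0634). The numbers were not treated as pairs, since deviations of same-numbered samples correlated at 0.108, -0.132 and 0.0147, and not every sample correlated best with its own number.

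The difference of effects between cDC2 and cDC1 was called for 10 higher and 26 lower genes without a count filter, and for 0 to 4 and 0 to 14 with 1 sample left out. Against mature DC the counts were 0 to 6 and 0 to 2 with 1 sample left out. Against C1q macrophages they were 15 and 10 without a count filter, 2 and 4 with RLE size factors, and 0 to 23 and 0 to 22 with 1 sample left out. The differences in the share of cDC2 with a UMI reversed without thinning for Fcgr1 (3.37 points to -9.25) and Ccr2 (-9.87 points to 1.63). The difference in the cDC2 share of kept barcodes was 0.211 to 0.965 points over its alternatives as percentages, the lowest with cells that held monocyte UMIs left out, and that of the share of dendritic cells was -10.2 to -1.16 points, with exact permutation p of 0.1 or above throughout. For the first share, each αPD-1 + corin value lay above each αPD-1 value with at least 3 UMIs of Cd209a and Mgl2, and also with barcodes that held a Ptprc UMI as denominator (exact permutation p = 0.1 in both).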

Other observations

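Sp100, Ifitm1 and Lmna, genes outside the lists, came close to the threshold in cDC2 and were named after their values were seen. Sp100 encodes a nuclear body protein induced by interferon and was at 409.6, 316 and 230.2 and 124, 131 and 144 CPM in the αPD-1 and αPD-1 + corin samples (log2 fold change -1.25, SE 0.24, edgeR adjusted p = 0.0817). Ifitm1, an interferon-inducible membrane protein, was at 1551, 1059.8 and 520.4 and 2951, 3458 and 2355 CPM (log2 fold change 1.52, SE 0.33, adjusted p = 0.132). Lmna, which encodes lamin A of the nuclear envelope, was at 36.6, 30.6 and 10.01 and 130.03, 106 and 75.96 CPM (log2 fold change 2.08, SE 0.45, adjusted p = 0.132). It passed the count filter only through the αPD-1 + corin samples.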
